A study of Mus musculus with 7 samples.

Results

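Described here are 10 genes of cytokine signalling in healing mouse shoulders: the IL-1 ligands Il1a and Il1b, the IL-1 receptor antagonist Il1rn, the receptor Il1r1, Tnf, the IL-6 family ligands Il6, Il11, Osm and Lif, and Il10. They were chosen by name, and all 10 were found, by Ensembl identifier, among the 56854 identifiers listed for every library. Polyadenylated RNA of whole shoulder joints was sequenced from 7 mice, 2 weeks after surgical repair of the left supraspinatus tendon, a tendon of the rotator cuff. The groups were wild type (n = 3) and Tnc-/- (n = 4), the latter lacking Tenascin C, a glycoprotein of the extracellular matrix. All 7 mice had the repair, and uninjured shoulders were not analysed here. Strain, sex, age and the design of the Tnc allele are not given in the sources used here. Because the tissue is a mixture, the levels given here cannot be told apart into fewer cells of a type and less RNA per cell.

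The IL-1 ligands and TNF are early signals of tissue damage, made mainly by macrophages, neutrophils and stromal cells, and act through NF-kappa-B to raise chemokines, proteases and adhesion molecules. Il1r1 encodes the receptor chain that both IL-1 ligands bind, and Il1rn encodes a secreted protein that occupies this receptor without signalling. The IL-6 family ligands share the receptor chain gp130, encoded by Il6st, and signal through JAK kinases and Stat3. IL-10 also signals through Stat3 and restrains cytokine production by macrophages. In tendon, IL-1 and TNF are known for driving matrix breakdown and IL-6 for fibroblast responses during repair.

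Promoter sequences are shown for Il1b and Tnf, whose levels separated the genotypes, and for Il6. Il6 had 44 and 63 counts in 2 wild-type libraries and 0 counts in the other. Each is the 250 bases before the RefSeq start site in GRCm38.p6, written 5′ to 3′ on the strand of the gene, at chr2:129371140-129371389 on the minus strand for Il1b, chr17:35202008-35202257 on the minus strand for Tnf and chr5:30012864-30013113 on the plus strand for Il6. Capitals mark matches to TATAAA or to the kappa-B consensus, the DNA motif of NF-kappa-B.
Il1b: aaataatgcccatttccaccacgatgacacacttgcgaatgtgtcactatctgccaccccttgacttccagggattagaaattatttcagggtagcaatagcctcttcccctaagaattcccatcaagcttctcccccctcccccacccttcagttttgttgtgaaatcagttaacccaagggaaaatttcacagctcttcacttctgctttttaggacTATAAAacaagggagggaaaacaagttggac
Tnf: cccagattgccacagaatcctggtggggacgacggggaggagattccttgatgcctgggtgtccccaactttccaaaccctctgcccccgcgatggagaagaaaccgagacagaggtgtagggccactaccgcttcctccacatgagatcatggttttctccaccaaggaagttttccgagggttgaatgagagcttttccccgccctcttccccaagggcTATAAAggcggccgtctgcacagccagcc
Il6: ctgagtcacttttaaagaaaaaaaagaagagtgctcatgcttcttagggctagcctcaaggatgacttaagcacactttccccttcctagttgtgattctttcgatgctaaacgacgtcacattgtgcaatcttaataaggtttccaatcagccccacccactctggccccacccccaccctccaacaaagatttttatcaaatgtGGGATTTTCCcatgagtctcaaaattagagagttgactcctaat

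TATAAA lay at -31 in Il1b and at -29 in Tnf, counted as its first base from the start site. The kappa-B consensus was matched at -44 in Il6. Of 32851 promoter windows of this length, 12.4% held TATAAA and 7.25% the kappa-B consensus, both strands searched. The AP-1 letters TGANTCA, found in 6.75% of windows, were matched at -249 in Il6. The windows of all 3 genes held neither TGACGTCA (1.55% of all windows) nor TTCNNNGAA (7.02%). These are matches of letters within a window and show no binding. Of the 10 genes, 8 have an entry in the table; Osm and Il10 have none.

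Libraries held 13462535 to 18503579 gene counts in wild type and 19249441 to 28189752 in Tnc-/-. The 2 genotypes were counted against different lists of identifiers, 126 being particular to wild type and 87 to Tnc-/-, and effects of counting and of genotype cannot be told apart. Tnc was at 326 to 440 CPM (counts scaled to the library's total) in wild type and at 32.0 to 50.2 CPM in Tnc-/-. Wild-type libraries 2 and 3 stood apart from the other 5. In them 1529 genes for olfactory, vomeronasal and trace amine receptors, which belong to sensory neurons, summed to 1407 and 999 CPM, against 81.6 CPM in wild-type library 1 and 32.1 to 39.5 CPM in Tnc-/-. Values without these libraries are therefore given for most of the 10 genes and of the pathway calls. That fit has 1 wild-type library, so its spread comes from the 4 Tnc-/- libraries alone, wild-type library 1 is assumed to vary like them, and its p-values are no replicated test. A fit with the receptor sum as a covariate extrapolates, since that sum was lower in every Tnc-/- library than in any wild-type library. Wild-type library 1 lies nearest to Tnc-/- in that sum, so both fits lean on it and are not independent. Markers of the labelled tissue were present in all 7 libraries, with 38910 to 54820 CPM summed over 12 fibroblast and tendon genes in wild type and 35570 to 57900 CPM in Tnc-/-. Of those 12, the tendon gene Scx was listed at 0 in every library.

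The 10 genes were mostly lowly expressed, and several could not be judged in all libraries. Levels were compared between genes per length, as CPM per kb of exon. In Tnc-/- the order was Il1r1 at 6.20 ± 0.506 (SD, n = 4), Il1b at 5.42 ± 1.52, Il1rn at 2.70 ± 0.398, Tnf at 2.08 ± 0.186, Osm at 1.35 ± 0.555, Il11 at 0.941 ± 0.453, Lif at 0.777 ± 0.112, Il6 at 0.221 ± 0.119, Il10 at 0.141 ± 0.150 and Il1a at 0.0885 ± 0.146. Within that order only the steps from Il1b to Il1rn, from Il1rn to Tnf and from Lif to Il6 exceeded the spread, in that the ranges of mean ± SD did not overlap. In wild type Il1r1 was highest per exon length as well, at 6.58 ± 1.21 (SD, n = 3), followed by Osm at 3.50 ± 1.98 and Il10 at 3.46 ± 2.82. There the ranges of all neighbours overlapped except those of Lif, at 0.710 ± 0.221, and Il1a, at 0.0581 ± 0.101.

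A gene was taken as too low to judge in a library where it had 3 counts or fewer, or where its CPM per kb of exon did not pass the 95th percentile of the receptor genes. That percentile was 0.0708 CPM per kb in wild-type library 1, 1.52 in library 2, 1.06 in library 3 and 0 in Tnc-/-. By this rule 3 of the 10 genes, Il1b, Il1r1 and Osm, were above background in all 7 libraries. Il1rn missed it in wild-type library 2. Tnf, Lif and Il11 missed it in wild-type libraries 2 and 3, and Il6 in wild-type libraries 1 and 2. Il10 missed it in Tnc-/- libraries 1 to 3. Il1a passed in Tnc-/- library 1 alone and was too low to judge.

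**Figure D1:**
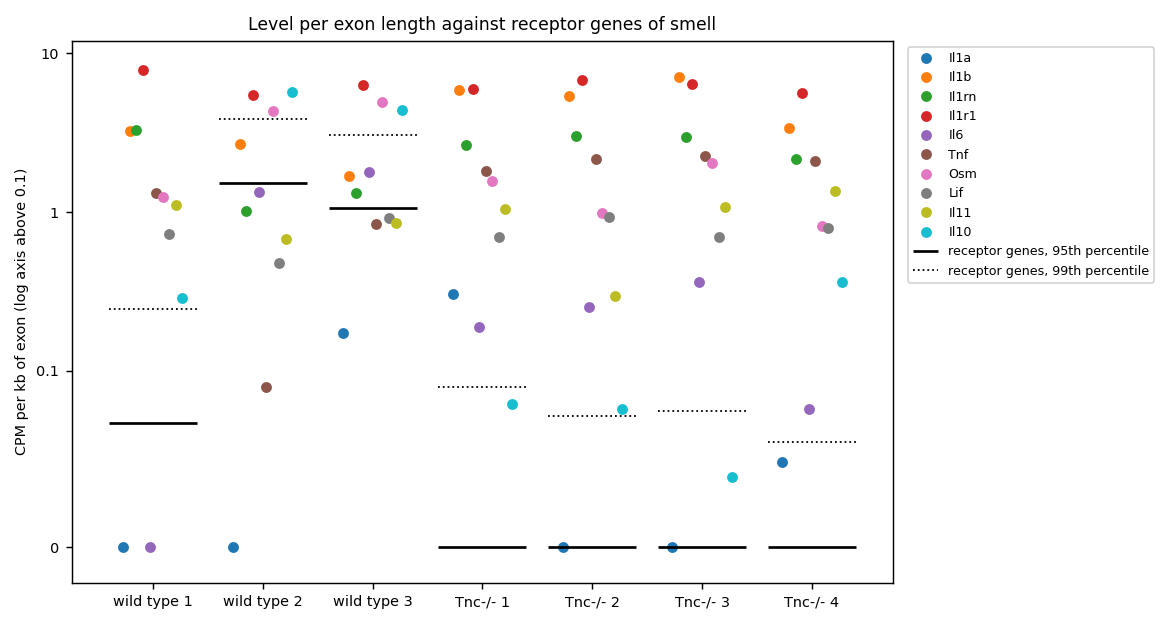
CPM per kb of exon of the 10 genes (coloured points) in each of the 7 libraries, on a log axis that is linear below 0.1, with the 95th (solid line) and 99th (dotted line) percentile of the receptor genes of the same library. The 95th percentile is at 1.52 and 1.06 in wild-type libraries 2 and 3 and at most 0.0708 in the others, so the same level clears it in some libraries and not in others.

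The comparison of interest was Tnc-/- against wild type. Of the 10 genes, 8 passed the filter on low counts, and 1 of these, Il1b, had an adjusted p under 0.05 (edgeR's quasi-likelihood test), against 29.0% of all 17791 genes tested. Their median log2 fold change was 0.32, against -9.0e-04 over all genes tested. In 2 of the 8, Il1b and Tnf, every Tnc-/- library lay above every wild-type library. The same was so in 10.4% of all genes tested. In 0 of the 8 was every Tnc-/- library below, against 24.1% of all genes, and 34.4% of all genes did not overlap in either direction. An unadjusted p under 0.05 was reached by 1 of the 8 and by 42.3% of all genes. No test was made of either share of the 10 genes against its background.

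**Figure D2:**
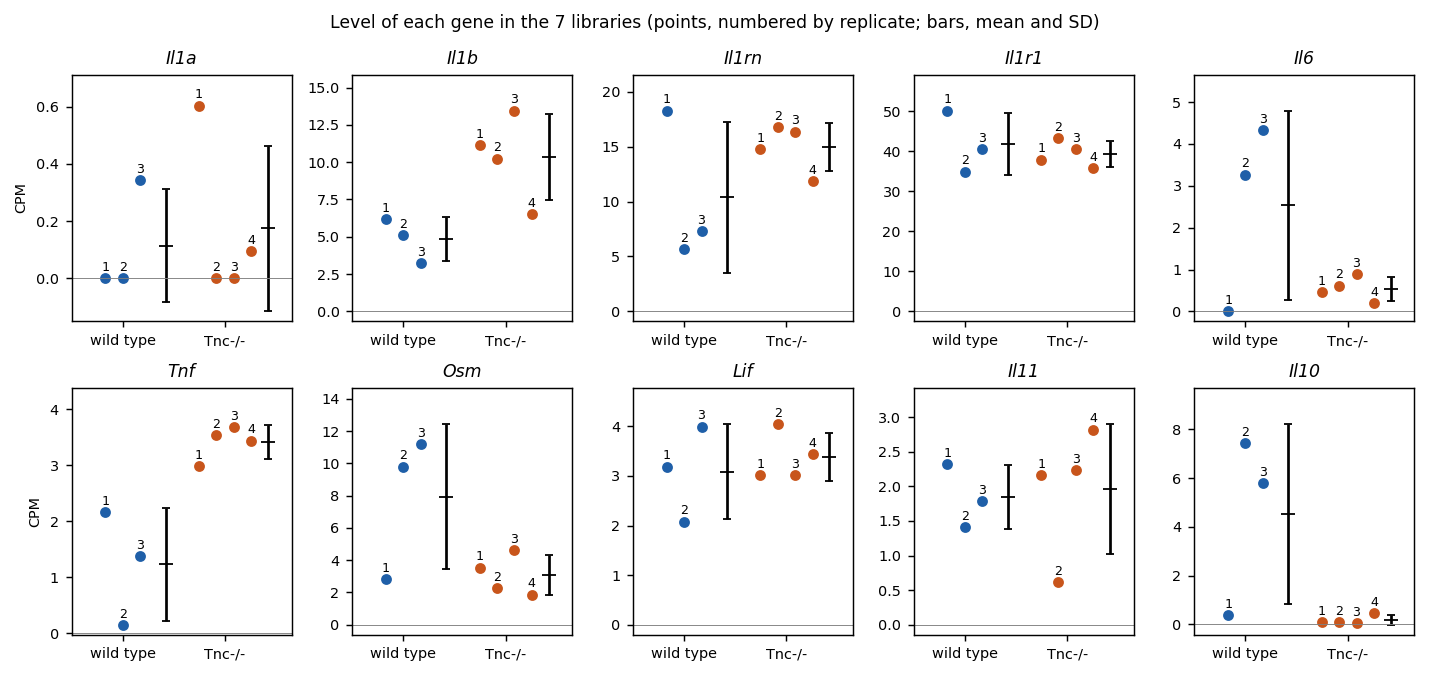
CPM of each gene in 3 wild-type (blue) and 4 Tnc-/- (orange) libraries, with the replicate number above each point; black bars give the mean and SD. Il1b and Tnf are higher in every Tnc-/- library, whereas Il6, Osm and Il10 are higher in wild-type libraries 2 and 3 than in the others.

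Among the IL-1 genes, Il1b rose in Tnc-/- and Il1rn and Il1r1 did not pass the test. Il1b (ENSMUSG00000027398) had 6.16, 5.13 and 3.23 CPM in the wild-type libraries, in replicate order, and 11.1, 10.2, 13.5 and 6.50 CPM in the Tnc-/- libraries. The highest wild-type and the lowest Tnc-/- library nearly touch. The means were 4.84 ± 1.48 CPM (SD, n = 3) and 10.3 ± 2.89 CPM (SD, n = 4), which gave a log2 fold change of 1.29 with an SE of 0.39 (edgeR, adjusted p = 0.0375). The call was lost in 12 of 19 alternatives. Leaving out any 1 of wild-type libraries 2 and 3 and Tnc-/- libraries 1, 2 and 3 gave an adjusted p between 0.0770 and 0.124. Without wild-type libraries 2 and 3 the log2 fold change of Il1b was 0.85 (adjusted p = 0.17), resting on 1 wild-type library. With the receptor sum as a covariate it was 0.75 (adjusted p = 0.498). Over the 19 alternatives its log2 fold change ran from 0.75 to 1.67. As the groups do not overlap, leaving out libraries could hardly turn the sign, and some alternatives share a fold change. That range is therefore no separate support for a rise of Il1b. In GENCODE M21 its exons overlap those of Il1bos on the opposite strand, which had 0 to 16 counts, and whether the counting used strand is not given in the sources used here.

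Il1a, the second IL-1 ligand, had 0, 0 and 5 counts in wild type and 17, 0, 0 and 2 counts in Tnc-/-. No genotype difference can be read from these counts, and Il1a did not pass the filter.

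Il1rn (ENSMUSG00000026981), the antagonist, was at 18.3, 5.65 and 7.30 CPM in wild type and at 14.8, 16.8, 16.4 and 11.9 CPM in Tnc-/-. Wild-type library 1 was the highest of all 7 and libraries 2 and 3 the lowest, so the groups overlap. The log2 fold change of Il1rn was 0.70 (SE 0.43; edgeR, adjusted p = 0.247). It was 1.57 without wild-type library 1 (adjusted p = 1.72e-04) and -0.18 without wild-type libraries 2 and 3 (adjusted p = 0.668), so the choice of wild-type library sets its direction. Per kb of exon, Il1rn was 1.02, 0.379 and 0.777 times Il1b in wild-type libraries 1 to 3 and 0.456, 0.563, 0.419 and 0.631 times Il1b in Tnc-/- libraries 1 to 4. Those ratios overlap between the genotypes.

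Il1r1 (ENSMUSG00000026072), the receptor, had the highest mean per exon length of the 10 genes in both genotypes, with mean ± SD overlapping the next gene. It was at 50.2, 34.9 and 40.5 CPM in wild type and at 37.9, 43.3, 40.6 and 35.9 CPM in Tnc-/-, with overlapping groups. Its log2 fold change was 0.12 (SE 0.18; edgeR, adjusted p = 0.634) and turned to -0.11 when libraries were scaled by their totals. Without wild-type library 1 it was 0.43 (adjusted p = 0.0232), and without wild-type library 2 it was -0.0095 (adjusted p = 0.976).

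Tnf (ENSMUSG00000024401) was at 2.16, 0.149 and 1.38 CPM in wild type, from 40, 2 and 20 counts. In Tnc-/- it was at 2.98, 3.53, 3.69 and 3.44 CPM, from 69 to 84 counts. The 4 Tnc-/- values were close together and exceeded each of the 3 wild-type values, while the wild-type libraries were spread widely. The means were 1.23 ± 1.02 CPM (SD, n = 3) and 3.41 ± 0.305 CPM (SD, n = 4), and the log2 fold change of 1.64 (SE 0.76) did not pass the test (edgeR, adjusted p = 0.133). Without wild-type library 1 it was 2.50 (adjusted p = 0.00627). Without wild-type libraries 2 and 3, in which Tnf was too low to judge, it was 0.76 (adjusted p = 0.258).

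Among the IL-6 family ligands, none passed the test with all libraries. Il6 (ENSMUSG00000025746), the ligand that names the family, had 0 counts in wild-type library 1, with an exact 95% upper bound of 0.199 CPM. It had 44 and 63 counts in wild-type libraries 2 and 3, or 3.27 and 4.34 CPM. Against the receptor genes, Il6 was too low to judge in wild-type libraries 1 and 2. In Tnc-/- it had 13, 12, 17 and 4 counts, or 0.461, 0.615, 0.883 and 0.191 CPM. By these values every Tnc-/- library lay between wild-type library 1 and the other wild-type libraries. Tnc-/- library 4, at 4 counts, was within the bound of wild-type library 1 and cannot be told from it. The log2 fold change of Il6 was -1.95 (SE 1.17; edgeR, adjusted p = 0.237), and -2.45 (adjusted p = 0.00463) without wild-type library 1.

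Osm (ENSMUSG00000058755), encoding oncostatin M, was also highest in wild-type libraries 2 and 3. It was at 2.81, 9.80 and 11.2 CPM in wild type, and at 3.55, 2.25, 4.62 and 1.86 CPM in Tnc-/-. Wild-type library 1 lay within the range of Tnc-/- and libraries 2 and 3 above it. The log2 fold change was -1.12 (SE 0.54; edgeR, adjusted p = 0.15). For Osm it was -1.41 without wild-type library 1 (adjusted p = 0.00645) and 0.23 without wild-type libraries 2 and 3 (adjusted p = 0.806).

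Lif and Il11 did not differ beyond the spread of the libraries. Lif (ENSMUSG00000034394), encoding leukaemia inhibitory factor, was at 3.19, 2.08 and 3.99 CPM in wild type and at 3.01 to 4.05 CPM in Tnc-/- (log2 fold change 0.35, SE 0.44; edgeR, adjusted p = 0.579). Il11 (ENSMUSG00000004371), a ligand made by stromal cells, was at 2.32, 1.41 and 1.79 CPM in wild type and at 0.615 to 2.82 CPM in Tnc-/- (log2 fold change 0.29, SE 0.61; edgeR, adjusted p = 0.749). The standard errors of both are larger than their fold changes. In Tnc-/- the counts of Il11 ran from 12 to 61.

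Il10 (ENSMUSG00000016529) had 7, 100 and 84 counts in wild type, or 0.378, 7.43 and 5.78 CPM. In Tnc-/- it had 3, 2, 1 and 10 counts, or 0.106, 0.102, 0.0519 and 0.478 CPM. Libraries 2 and 3 of wild type were far above the other 5, among which wild-type library 1 lay within the range of Tnc-/-. Il10 did not pass the filter on low counts. In the fit with no filter its log2 fold change was -4.18 (edgeR, adjusted p = 0.0279), where 26.3% of 29121 genes were called, 7.24% higher and 19.0% lower. In DESeq2 with Benjamini-Hochberg adjustment Il10 was at -4.37 (adjusted p = 0.0012), where 32.4% of genes were called, 8.48% higher and 23.9% lower. Both calls rest on wild-type libraries 2 and 3.

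Across the 10 genes, wild-type libraries 2 and 3 often took the extreme positions. In 3 genes, Il6, Osm and Il10, both of these libraries lay above the other 5, as they did in 39.1% of the 29121 genes with a count. In 3 others, Il1b, Il1rn and Tnf, both lay below the other 5, as in 10.5% of genes. Without wild-type library 1, 7 of 9 genes that passed the filter were called, against 64.2% of all genes in that fit, 24.3% higher and 39.9% lower. In Tnc-/- 4 were higher (Il1b, Il1rn, Il1r1 and Tnf) and 3 lower (Il6, Osm and Il10). Il10 did not pass the filter with all libraries. It entered that fit through wild-type libraries 2 and 3, where its counts are highest, so its call there is no support. Without wild-type libraries 2 and 3, 0 of 9 were called, against 4.45% of all genes (2.53% higher, 1.92% lower), and 2 of the 9, Il1b and Il6, had an unadjusted p under 0.05 (edgeR), against 24.6% of all genes; the only wild-type library of that fit has 0 counts of Il6. With the receptor sum as a covariate 0 of 8 were called, against 2.46% of all genes (1.16% higher, 1.30% lower), with 1, Il6, at an unadjusted p under 0.05, against 18.6% of all genes.

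**Figure D3:**
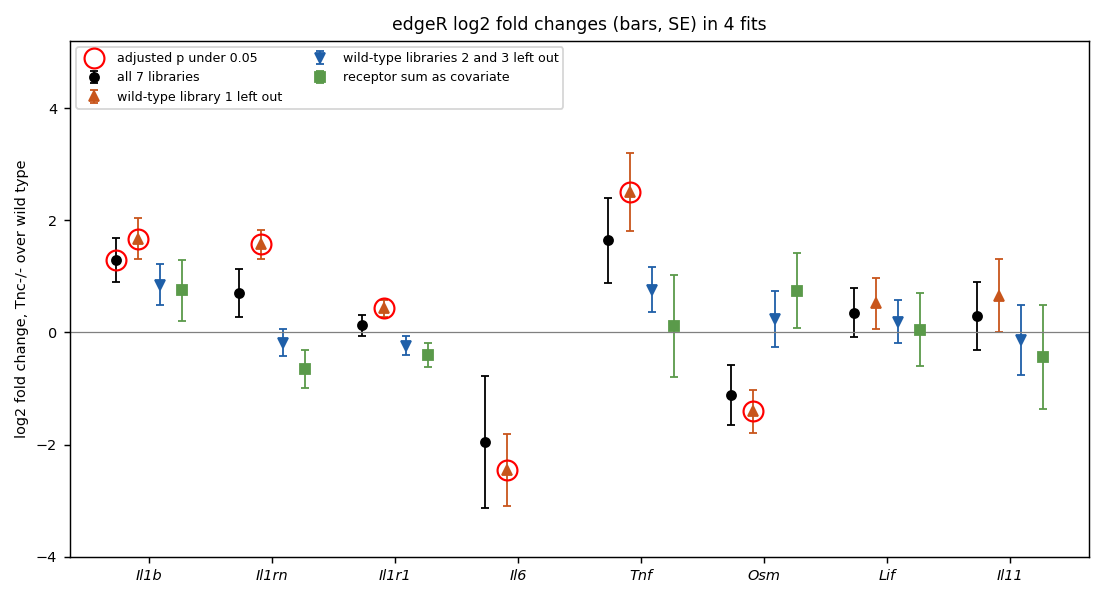
edgeR log2 fold changes of the 8 genes that passed the filter, Tnc-/- over wild type, with their SE, in 4 fits; red rings mark an adjusted p under 0.05. Values for Il6 without wild-type libraries 2 and 3 or with the covariate are not drawn, since wild-type library 1 has 0 counts. Il1rn, Il1r1, Osm and Il11 lie on opposite sides of 0 depending on which wild-type libraries are used.

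Marker sums of several cell types differed between the same libraries. The 12 neutrophil genes, 0 of them at 0 in all libraries, had summed levels of 5999, 3179 and 3557 CPM in the wild-type libraries, in replicate order, and of 6066 to 10750 CPM in Tnc-/-, and 9 of the 12 were called higher, 0 of them without wild-type libraries 2 and 3. The 8 erythroid genes summed to 8659, 5115 and 6464 CPM in wild type and 11580 to 23960 CPM in Tnc-/-, and 6 of the 7 tested were called higher, 1 of them without wild-type libraries 2 and 3. The 12 macrophage and monocyte genes summed to 3687, 2353 and 2158 CPM in wild type and to 2764 to 3396 CPM in Tnc-/-, with 2 called higher. Their median log2 fold change was 0.394 with all libraries and -0.146 without wild-type libraries 2 and 3. The neutrophil, erythroid and macrophage sums, like Il1b, Il1rn and Tnf, were lowest in wild-type libraries 2 and 3. This order was not limited to blood cells. The 10 skeletal muscle genes had it too, with sums of 31550, 25810 and 25750 CPM in wild type and 31490 to 45440 CPM in Tnc-/-. The 8 T cell and NK cell genes summed to 42.9, 84.0 and 76.1 CPM in wild type and to 36.1 to 56.3 CPM in Tnc-/-. Their sum was highest in the libraries where Il6, Osm and Il10 were highest, and 2 of the 8 were called lower. Not every gene followed the sum: 1, Trac, was higher in every Tnc-/- library and 2 were lower in every one. The median log2 fold change of the 8 was -0.839 with all libraries and 0.396 without wild-type libraries 2 and 3. The 6 mast cell genes summed to 50.9, 79.9 and 63.2 CPM in wild type and 43.3 to 60.7 CPM in Tnc-/-, also highest in wild-type libraries 2 and 3, with 0 called. Not every list set wild-type libraries 2 and 3 apart. The 8 endothelial genes summed to 731, 743 and 712 CPM in wild type and to 569 to 630 CPM in Tnc-/-, with no overlap. Of them 1 was called higher and 2 lower, with a median log2 fold change of -0.0992. The 12 cartilage and bone genes summed to 3033 to 4134 CPM in wild type and 2400 to 4767 CPM in Tnc-/-. The part of any of these cells in the cytokine values was not tested.

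The other genes of these pathways were described by 7 lists holding 116 genes, of which 100 passed the filter. Of these 100, 14 were called higher and 5 lower in Tnc-/- (edgeR), against 10.3% higher and 18.7% lower over all genes tested. Scaled by library totals the split was 8 higher and 8 lower, against 5.35% higher and 25.5% lower over all genes (30.9% in either direction). The median log2 fold change of the 100 was 0.26 with all libraries. With the receptor covariate 3 of 100 were called, Il31ra, Il10rb and Mmp3, against 2.46% of all genes in that fit.

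Genes of IL-1 reception and maturation showed 1 higher and 2 lower calls among 25. Il1rap, the accessory chain that Il1r1 needs to signal, fell by 3.76 on the log2 scale (SE 0.95; edgeR, adjusted p = 0.0204). Il1rap had 0.865, 12.4 and 8.74 CPM in the wild-type libraries and 0.0955 to 0.973 CPM in Tnc-/-, so the call rests on libraries 2 and 3. Nlrc4, an inflammasome sensor, was high in the same 2 libraries, at 5.30, 38.2 and 22.8 CPM in wild type against 3.87 to 6.78 CPM in Tnc-/- (log2 fold change -1.85, SE 0.53; edgeR, adjusted p = 0.0314). Gsdmd, the pore protein through which IL-1 leaves cells, rose from 31.2 ± 2.14 CPM (SD, n = 3) to 46.8 ± 5.28 CPM (SD, n = 4), a log2 fold change of 0.81 (edgeR, adjusted p = 0.00877), and was 0.64 without wild-type libraries 2 and 3 (adjusted p = 0.0743). Il18rap, a chain of the IL-18 receptor, Il36g, an IL-1 family ligand, and Sigirr, an inhibitory receptor, had log2 fold changes of 0.87, 0.95 and 0.72 with adjusted p (edgeR) of 0.0711, 0.104 and 0.125. Irak4, a kinase downstream of the receptor, was at -0.39 (0.0976) and Nlrp3, an inflammasome sensor, at 0.86 (0.141).

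Of 22 genes of TNF release, receptors and NF-kappa-B signalling, 1 was called. Ltb, encoding lymphotoxin beta, a TNF family ligand, was at 8.65, 1.93 and 7.09 CPM in wild type and at 11.2 to 20.4 CPM in Tnc-/-, with no overlap (log2 fold change 1.71, SE 0.49; edgeR, adjusted p = 0.0325). Ltb was at 1.07 (adjusted p = 0.072) without wild-type libraries 2 and 3. The NF-kappa-B subunit genes Nfkb2, Nfkb1 and Rela had log2 fold changes of 0.71, 0.32 and 0.46 with adjusted p (edgeR) of 0.0571, 0.0888 and 0.0971. These subunit genes were at 0.19, 0.15 and 0.057 without wild-type libraries 2 and 3. The list's median with all libraries was 0.30.

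Among receptors and other ligands of the IL-6 family, 1 of 12 was called higher and 1 lower. Il31ra, a receptor chain for IL-31 that pairs with the oncostatin M receptor, rose in Tnc-/-. In GENCODE M21 its exons overlap those of Gm3226 on the same strand, and genotype and counting run cannot be told apart for this gene. Il31ra was at 4.38, 8.54 and 8.19 CPM in wild type and at 28.0, 28.7, 38.8 and 24.0 CPM in Tnc-/-, with wide separation. Its log2 fold change was 2.33 with an SE of 0.27 (edgeR, adjusted p = 0.00493). It was 3.12 with the receptor covariate (edgeR, adjusted p = 0.00351) and 2.88 against wild-type library 1 alone. Both of these values lean on wild-type library 1 and are not separate support. Ebi3, a subunit of IL-27, was at 2.65, 14.1 and 13.2 CPM in wild type and at 2.34 to 2.73 CPM in Tnc-/- (log2 fold change -1.72; edgeR, adjusted p = 0.0407), and 0.045 without wild-type libraries 2 and 3. Cntfr, a receptor chain for ciliary neurotrophic factor, was at 0.49 (edgeR, adjusted p = 0.0936).

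In the 11 signalling genes of the IL-6 family, 2 were called higher, the transcription factor genes Stat5a (log2 fold change 0.53; edgeR, adjusted p = 0.0386) and Stat5b (0.43; 0.0421). Scaled by library totals they were at 0.30 and 0.19 with adjusted p of 0.156 and 0.275, and without wild-type libraries 2 and 3 at 0.29 and 0.36 with adjusted p of 0.328 and 0.253. Stat3, through which the family mainly signals, was at 0.39 (0.064), and Socs3, its feedback inhibitor, at 0.48 (0.101). Of the IL-10 family and receptors, 5 of 10 passed the filter. Il10ra, the ligand-binding IL-10 receptor chain, was at 29.6, 16.4 and 15.8 CPM in wild type and 29.0 to 34.9 CPM in Tnc-/-, a log2 fold change of 0.81 (edgeR, adjusted p = 0.0494) that was 0.20 without wild-type libraries 2 and 3 (adjusted p = 0.496). Il10rb, the second chain, had 420, 367 and 400 counts in wild type and 0 in every Tnc-/- library, at least 185-fold lower against a floor of 3 counts per library. The exons of Il10rb overlap those of Gm21970 in GENCODE M21, and for this gene genotype and counting run cannot be told apart. Il22ra1, an IL-22 receptor chain, was at 0.540, 9.80 and 7.02 CPM in wild type and at most 0.248 CPM in Tnc-/-, and Il20rb was at -0.22 (0.641).

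Genes that IL-1, TNF or IL-6 are known to induce gave 8 calls among 25, each higher in Tnc-/-, with a median log2 fold change of 0.42. Over all genes tested 10.3% were called higher and 18.7% lower. Scaled by library totals 5 were called higher and 1 lower with a median of 0.16, against 5.35% higher and 25.5% lower over all genes. Without wild-type libraries 2 and 3 the median was 0.331. The lower call by library totals was Mmp3, encoding the matrix protease stromelysin 1. Mmp3 was at 94.4, 64.4 and 69.6 CPM in wild type and at 37.8 to 54.5 CPM in Tnc-/-, with no overlap, and its log2 fold change was -0.53 with all libraries (edgeR, adjusted p = 0.0943), -0.76 by library totals (0.0172) and -0.93 without wild-type libraries 2 and 3 (0.0312). Hp, encoding haptoglobin, rose from 149 ± 28.3 CPM (SD, n = 3) to 233 ± 30.4 CPM (SD, n = 4), a log2 fold change of 0.85 (edgeR, adjusted p = 0.0131). The transcription factor gene Cebpd was at 0.77 (0.0147) and the NF-kappa-B cofactor Bcl3 at 1.10 (0.0175). Lcn2, Zc3h12a, Junb and Vcam1 were the other calls, apart from Ccl2, at 1.13, 0.93, 0.74 and 0.68. These 4 were, without wild-type libraries 2 and 3, at 0.54, 0.57, 0.69 and 0.28 with adjusted p (edgeR) of 0.247, 0.185, 0.102 and 0.433, and by library totals Zc3h12a, Junb and Vcam1 had adjusted p of 0.0534, 0.0947 and 0.109. Without wild-type libraries 2 and 3 Hp, Cebpd and Bcl3 were at 0.47, 0.58 and 0.77 with adjusted p (edgeR) of 0.164, 0.104 and 0.156. Ccl2, the monocyte chemokine, had 0 counts in every wild-type library and 95 to 246 in Tnc-/-, at least 38.3-fold higher, and here too genotype and counting run cannot be told apart. Hp and Lcn2 are also abundant in neutrophils, whose marker sum was higher in every Tnc-/- library than in wild type; its part was not tested.

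**Figure D4:**
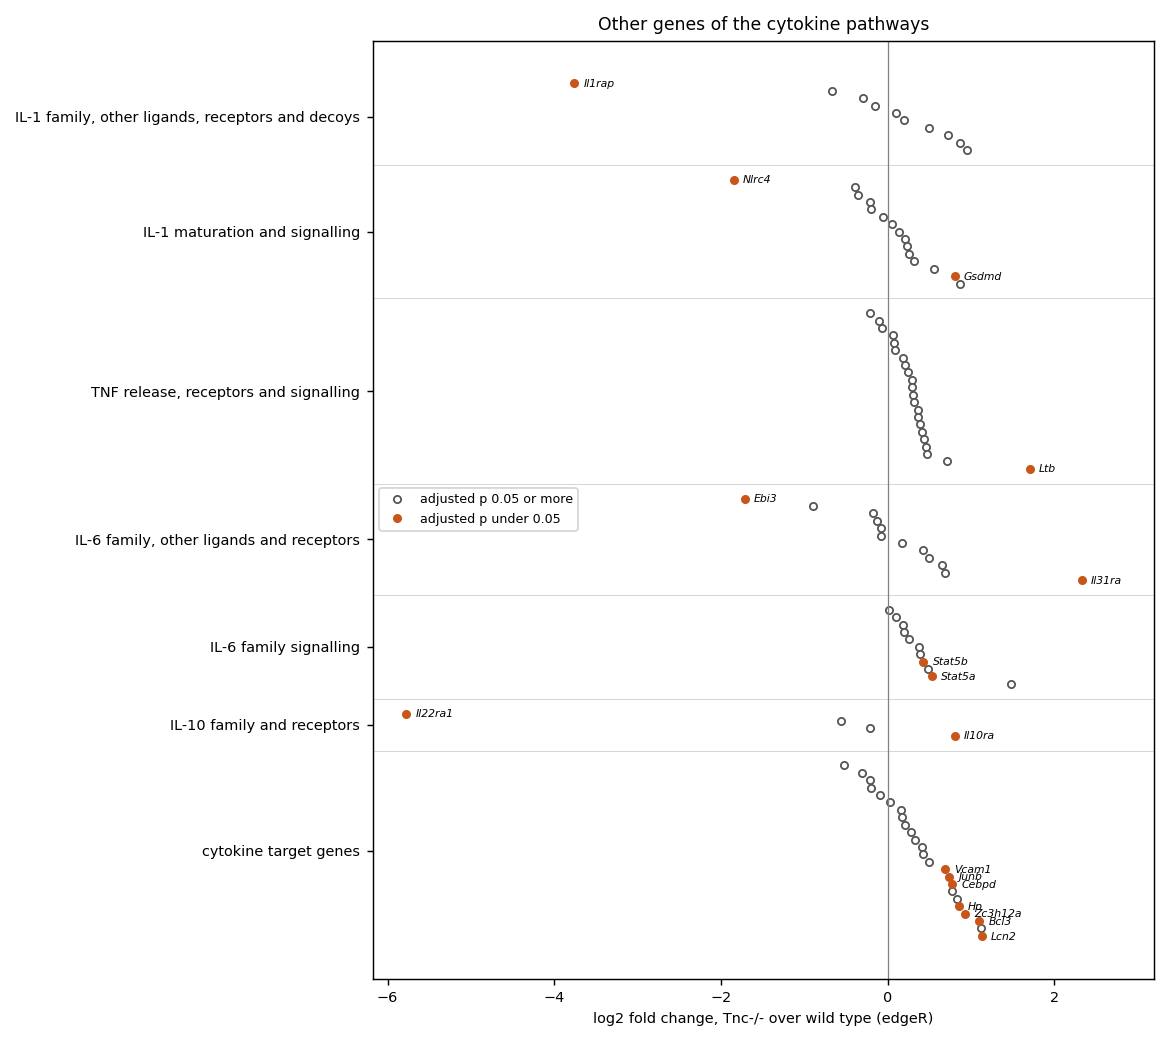
edgeR log2 fold changes of the other pathway genes, each point 1 gene, sorted within its list; filled points have an adjusted p under 0.05. Ccl2 and Il10rb, at 0 counts in 1 genotype, are not drawn. Calls below 0 (Il1rap, Nlrc4, Ebi3 and Il22ra1) are genes high in wild-type libraries 2 and 3, and Il31ra is the gene farthest above 0.

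The genes most like the 2 members with the highest CPM were sought over the 7 libraries among 12494 genes that averaged 5 CPM or more, predicted models left out. For Il1r1 they were Trmt2b, Grsf1 and Sh3glb1, with Pearson r of log2 CPM of 0.976, 0.970 and 0.970. For Il1rn they were Zfp746, Rassf3 and AI839979, with r of 0.995, 0.990 and 0.984. In all 6 genes wild-type library 2 was lowest, and the values are a description of these 7 libraries.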

How the data were processed

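The authors deposited raw read counts per Ensembl gene, 1 file per library. The submitters' processing notes name FastQC 0.11.9, HISAT2 2.2.1, HTSeq 2.0.2, DESeq2 1.38.3 and the build GRCm39 (mm39); the annotation release and strand setting are not given in the sources used here. Rows naming no gene, in the Tnc-/- files alone, held 30.1 to 32.7% of listed reads and were left out. No value column was left unmapped (0 columns). CPM are counts over library totals.

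The test was that of edgeR 4.0.16, run in R 4.3.3, on the deposited counts (filterByExpr, TMM, robust quasi-likelihood F test, genotype as the only term, all 7 libraries), adjusted by Benjamini-Hochberg over all genes tested, threshold 0.05. The fit was tested on simulated counts with the same dispersion for every gene and no deviating library. That test does not cover the spread of the wild-type libraries here. SE is the log2 fold change over the square root of F. Exon lengths came from GENCODE M21 (GRCm38), matched by identifier. Receptor pseudogenes were left out.

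Alternatives used DESeq2 1.42.0, limma 3.58.1 voom, other scalings and filters, left-out libraries, a replicate block and a receptor-sum covariate. The 10 genes and the lists were chosen with earlier results of these data known. Every one of the 10 genes is described; of each pathway list the 4 genes with the smallest p are named, except 1 that is not reported here. The remaining calls of the target list, Mmp3, and the pathway and marker genes named for their counts of 0 or their order were named after their values were seen. For likeness, the 3 highest Pearson r of log2(CPM + 0.5) were taken for the 2 with the highest mean CPM. Replicates differed by a chi-square per degree of freedom of 20.3 or more, so no pair looks like 1 library deposited again; the series text gives 7 mice, 3 and 4 per genotype, and each library was taken as 1 mouse.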

Additional observations from a re-analysis of the deposited data

Results flagged for a closer look

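Each of 20 values was examined over the Tnc-/- group for a single outlying library by Dixon's criterion, which chance meets in about 1 in 20 cases; 4 met it. Il1a was at 0.603 CPM in Tnc-/- library 1, against at most 0.0955 CPM in the others. Il10 was at 0.478 CPM in Tnc-/- library 4, against at most 0.106 CPM in the others. Both rest on 17 counts or fewer. The fibroblast and tendon markers summed to 57900 CPM in Tnc-/- library 4, and the erythroid markers to 24000 CPM in Tnc-/- library 1.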

How the results depend on the processing

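Of the 10 genes, 1 was called with all libraries. The count was 2 by DESeq2 with Benjamini-Hochberg adjustment and with no filter, and 0 by DESeq2 with Bonferroni adjustment, edgeR with Bonferroni adjustment, limma voom, library totals, the receptor covariate and without wild-type libraries 2 and 3. Leaving out 1 library gave 0 to 7, the 7 being without wild-type library 1 and including Il10, which did not pass the filter with all libraries. Pathway genes called, 19 with all libraries, were 3 by DESeq2 with Bonferroni adjustment, 1 by edgeR with Bonferroni adjustment, 6 by limma voom, 11 with at least 10 counts in every library, 6 without wild-type libraries 2 and 3, 3 with the covariate and 5 to 54 with 1 library left out. All genes called, 5159, were in the same order of settings 1943, 22 and 1004, then 825 without wild-type libraries 2 and 3 and 438 with the covariate; DESeq2 with Benjamini-Hochberg adjustment gave 9423, and leaving out 1 library gave 2229 to 14113. With the replicate number as a block (replicates 1 to 3 of both genotypes), 0 of the 10 genes, 7 pathway genes and 1713 of all genes were called. In that fit Il1b was at 1.503 (edgeR, adjusted p = 0.0961) and Il11 at -0.096. Same-numbered libraries correlated by 0.0213, 0.121 and -0.0046. No clear pairing by number was seen, but with wild-type libraries 2 and 3 standing apart these values cannot exclude one. Signs turned without wild-type libraries 2 and 3 for Il1rn (-0.18), Il1r1 (-0.24), Osm (0.23), Il11 (-0.13) and Il6 (6.54), and with the covariate for Il1rn (-0.65), Il1r1 (-0.40), Osm (0.74), Il11 (-0.43) and Il6 (7.27). Both of these Il6 values, printed for completeness, are fitted against 0 counts and are no bounds. Il1r1 ranged from -0.0095 to 0.43 with 1 library left out, and also turned with library totals (-0.11) and without wild-type library 2 (-0.0095). Library totals moved the median of all genes to -0.24 on the log2 scale. With the 90th percentile of receptor genes 5 of the 10 genes were above background in all libraries, against 3, and 2 were with the 99th percentile or with CPM not divided by exon length. The cause of these changes was not tested. Intervals and floors cover counting error only.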

Other observations

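Of the 116 pathway genes, 7 were listed at 0 in all 7 libraries, as were 3 of the 88 marker genes. Among them are Myd88, the adaptor of the IL-1 receptor, Timp1, a protease inhibitor that responds to IL-6 family ligands, and the tendon gene Scx, chosen here after their values were seen. In GENCODE M21 the exons of Myd88 overlap those of Acaa1a on the opposite strand, and those of Timp1 and Scx overlap no exon of another gene. Overlaps with introns of other genes were not examined. Il36b, an IL-1 family ligand of epithelium, had 3, 78 and 64 counts in wild-type libraries 1 to 3 and 0 in Tnc-/-, an order like that of Il10. Lta, a TNF family ligand, had 27 counts in wild-type library 3 and at most 7 in any other library.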
